A study of Mus musculus with 12 samples.

Results

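The genes described here are 10 transcripts used as markers of lipid-associated macrophages, measured by RNA-seq in whole mouse liver. They were chosen by name (Trem2, Tyrobp, Itgax, Gpnmb, Cd9, Cd63, Lpl, Fabp5, Lgals3 and Ctsd), and all 10 of 10 were found among the 47729 genes counted. All 10 also had enough reads to be among the 16823 genes tested. Liver was taken from 12 C57BL/6 mice, 4 in each of 3 groups. Healthy mice (Naive_vehicle) were wild type, had neither streptozotocin nor high fat diet and received vehicle from week 6 to week 9. STAM-vehicle mice (STAM_vehicle) were made diabetic by streptozotocin on day 2 of life, ate a high fat diet from week 4 and received vehicle from week 6 to week 9. STAM-I-BET151 mice (STAM_treated) had the same streptozotocin and diet and received I-BET151, an inhibitor of the BET bromodomain proteins that bind acetylated histones, at 10 mg/kg over the same weeks. STAM mice combine loss of insulin-producing cells with a fatty diet and develop steatohepatitis. Per the study's methods, the model was made in C57BL/6 mice by streptozotocin and diet, and no genetic change is named for it. Neither the diabetes nor the diet can therefore be told apart from the liver disease in these comparisons. Per the study's methods, I-BET151 was given in hydroxypropyl methylcellulose with Tween, while the vehicle was methylcellulose. The drug and its carrier cannot be told apart.

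Lipid-associated macrophages are cells that gather where tissue is loaded with fat or dying fat-laden cells, in adipose tissue and in steatotic liver. TREM2, a surface receptor for lipids and lipoproteins, passes its signal through the adaptor TYROBP (DAP12), and the cells that use it take up lipid and digest it in lysosomes. Several of the 10 genes are not restricted to macrophages: cathepsin D is made in nearly all cells, and CD9, CD63, lipoprotein lipase and FABP5 are made by other cell types as well. In whole liver, a larger number of cells of a type and more RNA per cell cannot be told apart.

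Total counts per liver ranged from 34711229 to 53365596. The third STAM-I-BET151 mouse stood apart: its TMM normalization factor was 1.61 against 0.77 to 1.11 in the other 11 mice, and its 10 most abundant genes took 7.95% of counts. Its summed level of 8 hepatocyte markers was 22405 CPM (reads of a gene relative to the TMM-scaled library size), the lowest of the 12 livers. Counts of members that passed are given with and without this mouse. Marker sums, ratios to macrophage counts, resemblance to the members and results of other gene lists are given with it only.

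The genes differ in where they sit and in the letters upstream of their starts. The 250 bases before the RefSeq start (GRCm38.p6, in the direction of transcription) are shown for Trem2 and Cd63, which rose, for Itgax, and for Ctsd, which did not pass the test, because the listed motifs fall in different members. Capitals mark motif letters found on either strand. The Cd63 window lies inside the span of the gene counted here, which begins at chr10:128900989, so its RefSeq start is an internal one.
Trem2, chr17:48346151-48346400, plus strand: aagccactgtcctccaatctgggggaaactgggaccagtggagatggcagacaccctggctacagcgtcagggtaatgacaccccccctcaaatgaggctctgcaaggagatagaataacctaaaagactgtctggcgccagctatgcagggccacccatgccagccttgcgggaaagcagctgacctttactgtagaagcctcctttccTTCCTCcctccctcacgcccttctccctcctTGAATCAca
Cd63, chr10:128909095-128909344, plus strand: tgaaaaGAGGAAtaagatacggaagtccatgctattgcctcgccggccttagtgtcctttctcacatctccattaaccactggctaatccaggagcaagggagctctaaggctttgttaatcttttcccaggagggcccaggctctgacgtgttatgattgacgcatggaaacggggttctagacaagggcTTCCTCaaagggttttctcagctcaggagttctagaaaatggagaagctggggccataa
Itgax, chr7:128129300-128129549, plus strand: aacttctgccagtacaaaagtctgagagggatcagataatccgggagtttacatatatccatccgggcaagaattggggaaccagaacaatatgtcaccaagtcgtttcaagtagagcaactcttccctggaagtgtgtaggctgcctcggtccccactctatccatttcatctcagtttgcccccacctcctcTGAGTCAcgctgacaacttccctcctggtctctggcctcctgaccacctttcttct
Ctsd, chr7:142387828-142388077, minus strand: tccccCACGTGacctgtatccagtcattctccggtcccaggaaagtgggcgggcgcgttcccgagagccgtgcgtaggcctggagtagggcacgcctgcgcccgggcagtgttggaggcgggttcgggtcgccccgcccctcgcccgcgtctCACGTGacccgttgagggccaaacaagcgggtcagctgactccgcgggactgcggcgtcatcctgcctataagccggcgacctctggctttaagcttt

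The 4 motif spellings searched on both strands were CACGTG, the E-box that the lysosomal regulators of the MiT/TFE family bind, CATGTG, a related M-box, GAGGAA, the core of the PU.1 site of myeloid cells, and TGANTCA, the AP-1 site. No matched letters were shared between motifs. The Ctsd window held 2 matches to CACGTG, a spelling present in 6.02% of 32851 promoter windows of this length. The Trem2 window held 1 match to the PU.1 spelling, read on the strand opposite to the one shown and present in 23.3% of windows. It also held 1 match to the AP-1 spelling, present in 6.75% of windows. Cd63 held 2 matches to the PU.1 spelling and Itgax held 1 to the AP-1 spelling. The Cd9 window held 1 CATGTG, found in 12.3% of windows, and none of the 4 spellings was in the Gpnmb or Lgals3 window. The Lgals3 window, at chr14:47373610-47373859, also lies inside its gene span, which begins at 47367751. A match describes letters only.

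The genes lie on 7 chromosomes of GRCm38 (mm10). Trem2 (ENSMUSG00000023992) is at chr17:48346401-48354147, Gpnmb (ENSMUSG00000029816) at chr6:49036546-49070929 and Cd63 (ENSMUSG00000025351) at chr10:128900989-128912822. Their levels in healthy liver differed widely per transcript length. Ctsd stood highest at 170.8 ± 15.9 RPKM (SD, n = 4), followed by Tyrobp at 15.0 ± 2.75 and Cd9 at 8.95 ± 1.41. Cd63, Lpl, Fabp5 and Lgals3 lay between 3.27 and 3.96 RPKM, with SDs of 0.37 to 1.41 that overlapped. Trem2 (0.438 ± 0.208), Itgax (0.269 ± 0.068) and Gpnmb (0.175 ± 0.091) were lowest. Trem2 rested on as few as 12 reads in a healthy liver and Gpnmb on as few as 15, so their healthy levels carry the largest counting error.

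The first comparison asked how the 10 genes differ between healthy and diseased liver. Of them 6 rose in STAM-vehicle liver: Gpnmb, Trem2, Cd63, Lgals3, Lpl and Tyrobp. Among all 16823 genes tested, 5.72% rose, and the median log2 fold change was 1.45 over the 10 genes against 0.01 over all tested. No member fell, against 1.38% of all genes. The test was edgeR's quasi-likelihood test on the counts of all 12 mice, with Benjamini-Hochberg adjustment and a threshold of 0.05.

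Gpnmb, a transmembrane glycoprotein of lysosomes and melanosomes, measured 1.13, 0.397, 0.436 and 0.633 CPM in healthy mice 1 to 4, 3.77, 4.57, 12.4 and 3.84 CPM in STAM-vehicle mice and 6.49, 3.95, 4.84 and 5.93 CPM in STAM-I-BET151 mice. Each of the 8 STAM livers lay above each healthy liver, and the third STAM-vehicle mouse lay far above the others of its group. The log2 fold change between STAM-vehicle and healthy was 3.21 ± 0.44 (SE), or 9.28-fold (edgeR adjusted p = 0.001).

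Trem2, the receptor, measured 0.809, 0.318, 0.349 and 0.431 CPM in healthy mice, 1.27, 2.55, 3.40 and 2.44 CPM in STAM-vehicle mice and 2.31, 1.39, 2.90 and 2.96 CPM in STAM-I-BET151 mice. No STAM liver overlapped the healthy range. Trem2 was 4.98-fold higher in STAM-vehicle liver, a log2 fold change of 2.32 ± 0.38 (edgeR adjusted p = 0.00322). Its adaptor Tyrobp started from a higher level and changed less. Tyrobp measured 10.7, 8.13, 7.01 and 8.08 CPM in healthy, 10.2, 12.5, 20.2 and 15.4 CPM in STAM-vehicle and 15.1, 9.82, 10.2 and 11.6 CPM in STAM-I-BET151 mice. The first STAM-vehicle mouse lay within the healthy range, and the log2 fold change of Tyrobp was 0.78 ± 0.21 (edgeR adjusted p = 0.042). That call was lost in 7 of the 12 fits that left out 1 mouse, with adjusted p up to 0.151 without the third STAM-vehicle mouse.

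Cd63, a tetraspanin of late endosomes and secreted vesicles, measured 6.66, 3.18, 3.63 and 4.08 CPM in healthy, 10.3, 10.3, 30.4 and 12.1 CPM in STAM-vehicle and 19.4, 16.4, 11.9 and 25.9 CPM in STAM-I-BET151 mice. All STAM livers lay above all healthy livers. Cd63 rose by a log2 fold change of 1.84 ± 0.37 (edgeR adjusted p = 0.0101). Cd9, the other tetraspanin among the 10, did not pass the test. It measured 13.4, 10.8, 10.6 and 9.20 CPM in healthy, 12.4, 11.7, 21.8 and 14.8 CPM in STAM-vehicle and 20.6, 13.2, 7.10 and 25.02 CPM in STAM-I-BET151 mice, and the groups overlapped. The log2 fold change of Cd9 was 0.46 ± 0.31 (edgeR adjusted p = 0.418).

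Lgals3, the galectin-3 gene whose protein binds sugars on damaged lysosomes and at the cell surface, measured 6.51, 4.19, 3.95 and 3.91 CPM in healthy, 8.61, 10.2, 25.3 and 11.3 CPM in STAM-vehicle and 12.4, 9.94, 6.24 and 11.6 CPM in STAM-I-BET151 mice. STAM-vehicle and healthy livers did not overlap. Lgals3 rose by a log2 fold change of 1.58 ± 0.33 (edgeR adjusted p = 0.0126), and the call was lost only without the third healthy mouse, at 0.051. Ctsd, the lysosomal protease cathepsin D, lay between 344 and 414 CPM in healthy liver (347, 344, 414 and 348 CPM) and measured 382, 411, 488 and 421 CPM in STAM-vehicle liver. Its 4 values in STAM-I-BET151 liver were 413, 453, 181 and 466 CPM, the lowest being the third mouse. Ctsd did not pass the test, at a log2 fold change of 0.23 ± 0.25 (edgeR adjusted p = 0.629).

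Lpl, the enzyme that releases fatty acids from lipoprotein triglyceride, measured 17.1, 11.8, 19.5 and 16.8 CPM in healthy, 37.6, 29.2, 65.0 and 42.8 CPM in STAM-vehicle and 68.6, 45.4, 15.1 and 78.9 CPM in STAM-I-BET151 mice. STAM-vehicle liver lay wholly above healthy liver, and the third STAM-I-BET151 mouse lay inside the healthy range. The log2 fold change of Lpl in STAM-vehicle was 1.42 ± 0.39 (edgeR adjusted p = 0.0444), a call lost in 9 of the 12 fits that left out 1 mouse, with adjusted p up to 0.153 without the third STAM-vehicle mouse. Fabp5, which carries fatty acids inside cells, measured 3.06, 3.79, 3.46 and 3.02 CPM in healthy, 3.13, 3.05, 11.95 and 8.78 CPM in STAM-vehicle and 20.6, 5.21, 5.25 and 16.3 CPM in STAM-I-BET151 mice. A pair of STAM-vehicle mice lay at the healthy level and a pair lay above it. The log2 fold change of Fabp5 was 1.02 ± 0.50 and did not pass (edgeR adjusted p = 0.256).

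Itgax, the integrin subunit CD11c of dendritic cells and activated macrophages, measured 1.49, 1.01, 0.872 and 0.978 CPM in healthy, 1.68, 2.63, 4.57 and 3.27 CPM in STAM-vehicle and 3.57, 0.633, 3.93 and 1.59 CPM in STAM-I-BET151 mice. The STAM-vehicle values lay above all healthy values, yet the log2 fold change of 1.47 ± 0.47 did not pass in edgeR (adjusted p = 0.074). It passed in DESeq2 (adjusted p = 0.016), which called 7 members higher, against 7.36% of the genes it tested. Itgax also passed in edgeR without the second STAM-I-BET151 mouse (adjusted p = 0.0217) and without the third (adjusted p = 0.0318). In all, 6 members had STAM-vehicle values that did not overlap healthy values (Trem2, Itgax, Gpnmb, Cd63, Lpl and Lgals3), against 14.2% of all genes tested.

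**Figure D1:**
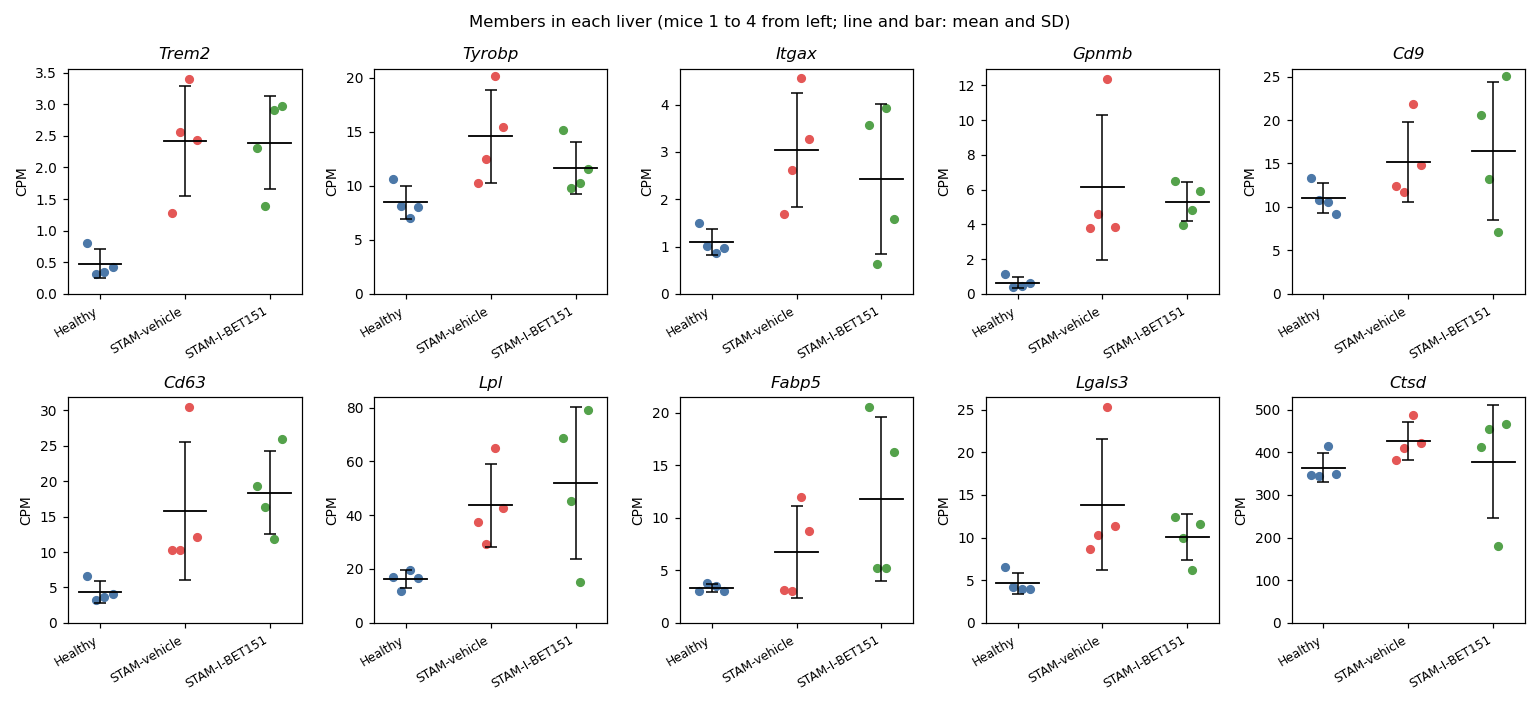
Level of each of the 10 genes (CPM, linear axes from 0) in 12 livers, with mice 1 to 4 of each group from left to right and the group mean and SD as a line and bar. Gpnmb, Trem2 and Cd63 separate all 8 STAM livers from the 4 healthy livers, and the third STAM-vehicle mouse is the highest of its group in all 10 panels.

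The third STAM-vehicle mouse was the highest of its group in 10 of 10 members, and the first was the lowest in 7. The first healthy mouse was the highest of its group in 7. The third STAM-vehicle mouse also had the highest summed level of 12 pan-macrophage genes, 736.0 CPM, and the first the lowest of its group, 396.9 CPM. Gpnmb, Trem2 and Cd63 passed the test in all 12 fits that left out 1 mouse. Across those fits Gpnmb ranged from 2.62 to 3.65 on the log2 scale, Trem2 from 2.10 to 2.72 and Cd63 from 1.31 to 2.12, and each was lowest without the third STAM-vehicle mouse. Without the third STAM-I-BET151 mouse, 7 members passed for STAM-vehicle against healthy, where 12% of all genes rose.

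The deposited files carry a sequencing lane number, with 6 lanes in use, and healthy and STAM-vehicle mice shared only lane 2. In that lane the fourth STAM-vehicle mouse lay above the first healthy mouse in 10 of 10 members. With lane as a covariate all 10 log2 fold changes remained positive, from 0.32 to 2.27, and 0 passed the adjusted threshold, where 0.196% of all genes rose. Trem2 was then 1.52 (edgeR adjusted p = 0.248) and Gpnmb 2.27 (edgeR adjusted p = 0.242) on the log2 scale. Lane and group can therefore be told apart only through a few mice.

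The next comparison asked whether I-BET151 changed the 10 genes in STAM liver. No member passed the threshold of 0.1 in edgeR, where 0.351% of all genes were called in either direction. DESeq2 also called 0 members, against 1.5% of its genes. With all 12 mice, 0 members had an unadjusted p under 0.05 in either tool. All 10 members overlapped between the groups, while 2.41% of genes lay wholly higher and 2.63% wholly lower with I-BET151. Log2 fold changes ran from -0.47 ± 0.32 in Lgals3 to 0.81 ± 0.49 in Fabp5, with a median of -0.09 over the members and 0.02 over all tested.

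The 95% intervals give the sizes of difference that these livers leave possible. Trem2 differed by -0.01 on the log2 scale, with a 95% interval from -0.74 to 0.71. For Gpnmb the difference was -0.21, from -1.04 to 0.61, and for Cd63 0.22, from -0.55 to 0.98. The widest bounds were -1.26 in Itgax and 1.87 in Fabp5. The log2 fold change was negative in 6 members (Trem2, Tyrobp, Itgax, Gpnmb, Lgals3 and Ctsd) and positive in 4 (Cd9, Cd63, Lpl and Fabp5), none beyond the spread between mice.

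**Figure D2:**
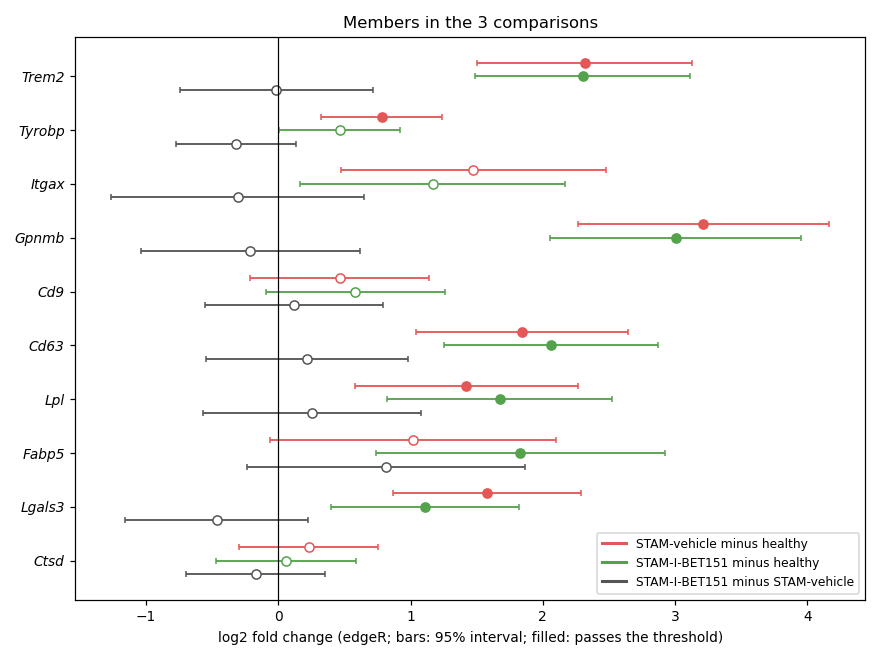
Log2 fold change of each of the 10 genes (x axis) in the 3 comparisons, with 95% intervals from edgeR; filled points pass the threshold of the comparison. Red and green points sit to the right of 0 for every gene, with Gpnmb at 3.21 and 3.003, and every grey interval of I-BET151 against STAM-vehicle spans 0.

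STAM-I-BET151 and STAM-vehicle mice shared 3 lanes, and the pairs went different ways. In lane 6 the first I-BET151 mouse lay above the first vehicle mouse in 10 of 10 members, in lane 2 the fourth lay above the fourth in 8, and in lane 7 the third lay above the third in 0. Lane 7 held the vehicle mouse that was highest in every member and the I-BET151 mouse with the outlying normalization factor. Leaving out both of these mice, a setting chosen after their values had been seen, gave the only member calls for I-BET151 against STAM-vehicle among all settings run. Cd63 was then higher by 0.92 (edgeR adjusted p = 0.0755) and Lpl by 0.83 (edgeR adjusted p = 0.0794) on the log2 scale, against 1.86% of all genes called higher. With both left out, STAM-vehicle against healthy had 5 members higher, against 8.21% of all genes. Since the vehicle mouse was picked for its high member levels, leaving it out lowers the vehicle mean of each member by construction, and nothing is drawn from these calls. Without the third I-BET151 mouse alone 0 members passed, where 2.38% of all genes were called in either direction. Without the third STAM-vehicle mouse alone 0 members passed as well, against 0.353% of all genes.

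I-BET151-treated STAM liver was also set against healthy liver, with the same healthy mice as before. In it 6 members were higher, against 9.88% of all genes, and no member was lower, against 5.25%. Gpnmb stood at a log2 fold change of 3.003 ± 0.44 (edgeR adjusted p = 0.00107), Trem2 at 2.30 ± 0.38 (0.00216) and Cd63 at 2.06 ± 0.38 (0.00377). Fabp5, at 1.83 ± 0.51, passed here (edgeR adjusted p = 0.0285), as did Lpl at 1.67 ± 0.40 (0.0139) and Lgals3 at 1.11 ± 0.33 (0.0373). Fabp5 did not pass in STAM-vehicle against healthy, but its difference between the STAM groups did not pass either (adjusted p = 0.692).

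Values of Trem2, Gpnmb, Cd63 and Fabp5 in I-BET151-treated liver did not overlap healthy values, against 10.9% of all genes. The calls of Trem2, Gpnmb and Cd63 held in all 12 fits that left out 1 mouse, those of Fabp5 and Lgals3 in 6 and that of Lpl in 11, lost only without the second healthy mouse. DESeq2 called 6 members higher, also against 10.9% of its genes. Without the third I-BET151 mouse 7 members were higher against a background of 10.9%, and without both STAM mice numbered 3 it was 7 against 11.3%. With lane as a covariate 0 passed, against 0.398% of all genes, and all 10 log2 fold changes were positive.

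Some macrophage markers rose as well. The summed level of 12 pan-macrophage genes (among them Adgre1, Csf1r and Cd68) was 269.3 to 361.7 CPM in healthy, 396.9 to 736.0 CPM in STAM-vehicle and 336.9 to 617.5 CPM in STAM-I-BET151 liver. In STAM-vehicle against healthy 4 of 12 rose (Adgre1, Cd68, Fcgr1 and Mpeg1), against 5.72% of all genes tested. Of 10 resident Kupffer cell markers 3 rose (Clec4f, Marco and Folr2), and of 8 monocyte markers 3 rose (Ly6c2, Plac8 and Cx3cr1). The monocyte sum went from 5.44 to 8.87 CPM in healthy liver to 12.3 to 27.8 CPM in STAM-vehicle liver. With all 12 mice, no gene of these 3 lists passed in edgeR for I-BET151 against STAM-vehicle.

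Few markers of other cells passed the test, but the rise was not confined to macrophage lists. In STAM-vehicle against healthy the median log2 fold change was 1.89 over the neutrophil genes and 0.90 over T and NK cell genes. The median was 0.71 over dendritic cell genes, 3.23 over the 2 tested adipocyte genes and -0.45 over hepatocyte genes. Over stellate cell, B cell, cholangiocyte and endothelial genes it was 0.39, 0.31, 0.25 and 0.14. It was 1.71 over monocyte, 0.86 over pan-macrophage and 0.70 over Kupffer cell genes, against 0.01 over all tested. The neutrophil sum was 3.05 to 5.21 CPM in healthy and 5.94 to 15.5 CPM in STAM-vehicle liver, with Ly6g at 0 in healthy liver and 1 of 5 tested genes called (Csf3r). The dendritic cell sum, 13.8 to 22.3 CPM in healthy and 17.02 to 21.2 CPM in STAM-vehicle liver, overlapped, and 0 of 8 were called. The adipocyte sum was 28.1 to 61.8 CPM in healthy and 39.8 to 162 CPM in STAM-vehicle liver, where 1 of 2 tested genes was called (Cfd) and Lep was at 0 in every group. The 8 hepatocyte markers summed to 106361 to 126480 CPM in healthy, 56100 to 83585 CPM in STAM-vehicle and 22405 to 108500 CPM in STAM-I-BET151 liver, and 0 of 8 passed for STAM-vehicle against healthy. Of 8 stellate cell markers 2 rose (Col1a1 and Rgs5), of 8 T and NK cell markers 1 rose (Cd8a), and no endothelial, cholangiocyte or B cell marker passed. Beside these counts, 5.72% of all genes tested rose. With all 12 mice, only Cd4 among all marker lists passed in edgeR for I-BET151 against STAM-vehicle, at 0.662 ± 0.199 against 2.28 ± 0.58 CPM. The part of these cells in the members' differences was not tested.

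**Figure D3:**
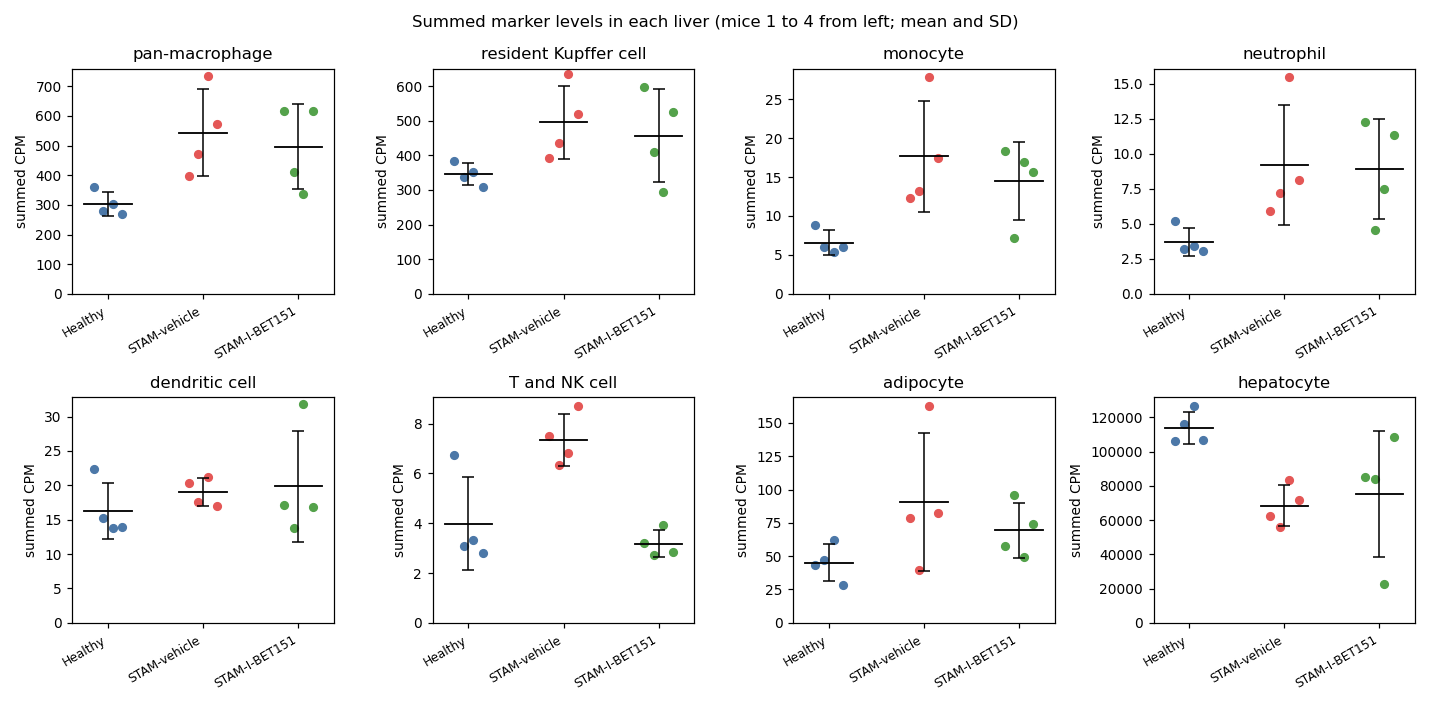
Summed CPM of the marker genes of 8 cell types (linear axes from 0) in each of the 12 livers, mice 1 to 4 from left, with group mean and SD. Pan-macrophage, monocyte and neutrophil sums of STAM-vehicle liver lie above the healthy values, hepatocyte sums lie below them, where 0 of 8 hepatocyte genes passed the test, and the third STAM-I-BET151 mouse has the lowest hepatocyte sum.

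Each member was also expressed per 100 counts on the 12 pan-macrophage genes, a description without a test. Trem2 went from 0.153 ± 0.052 per 100 in healthy to 0.438 ± 0.092 in STAM-vehicle and 0.513 ± 0.241 in STAM-I-BET151 liver (SD, n = 4 each). Gpnmb went from 0.208 ± 0.082 to 1.07 ± 0.43 and 1.10 ± 0.23. Cd63 went from 1.42 ± 0.33 to 2.76 ± 0.94 and 3.71 ± 0.47. These members exceeded the rise of the macrophage list itself, and their STAM-vehicle values did not overlap healthy ones.

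In all 5 members lay wholly higher on this scale in STAM-vehicle than in healthy liver (Trem2, Itgax, Gpnmb, Cd63 and Lgals3), against 2.23% of all genes tested. Cd9 lay wholly lower, at 0.771 of its healthy mean, but so did 45.9% of all genes. Tyrobp, Lpl, Fabp5 and Ctsd overlapped. Tyrobp in particular kept its ratio, at 2.79 ± 0.33 per 100 in healthy and 2.67 ± 0.07 in STAM-vehicle liver. Ctsd gave 121.1 ± 17.6 counts per 100 in healthy liver, more than the 12 macrophage genes together, and 80.9 ± 13.5 in STAM-vehicle liver. For I-BET151 against healthy, 4 members lay wholly higher (Trem2, Gpnmb, Cd63 and Lgals3), against 1.97% of all genes, and all 10 overlapped between the STAM groups.

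**Figure D4:**
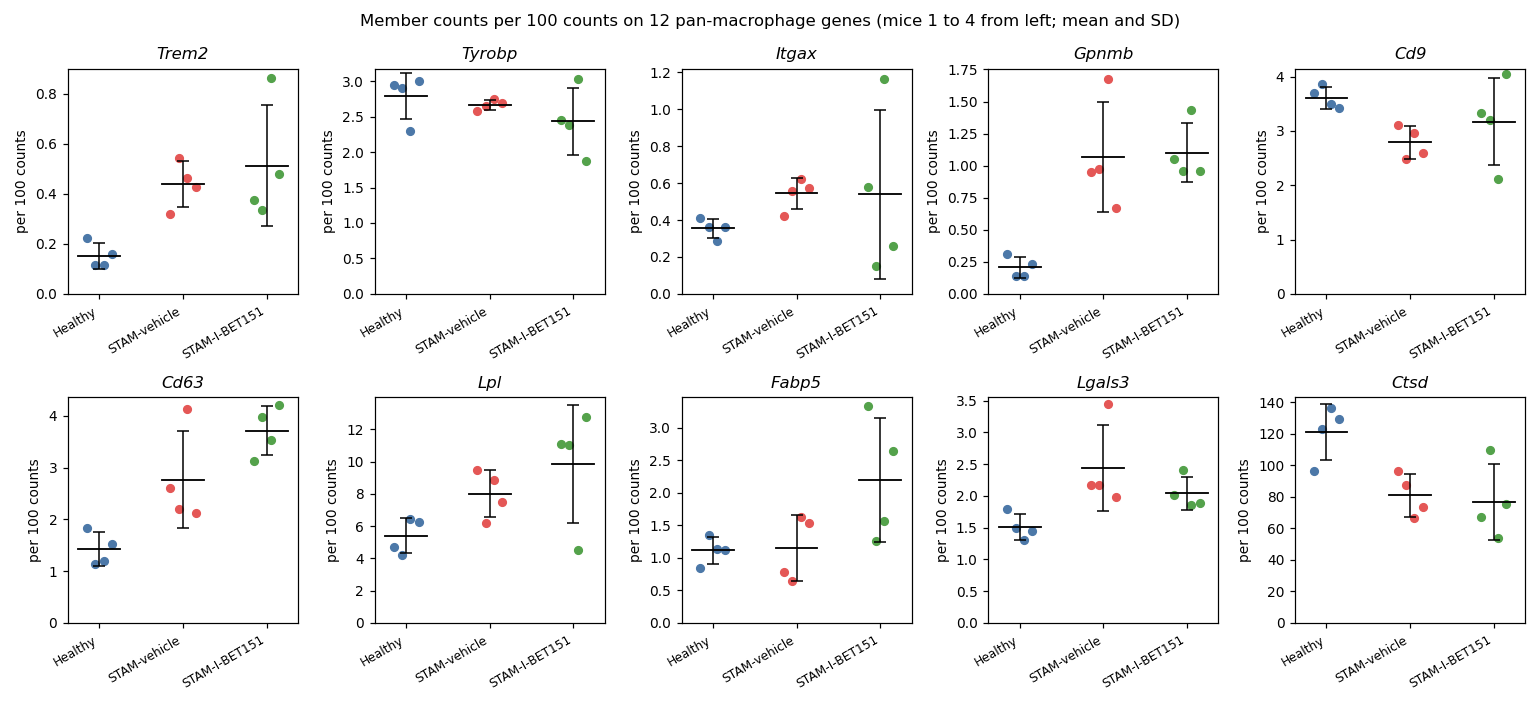
Counts on each of the 10 genes per 100 counts on 12 pan-macrophage genes (linear axes from 0) in each liver, mice 1 to 4 from left, with group mean and SD. Trem2, Gpnmb and Cd63 stay above the healthy values in all 8 STAM livers, Tyrobp stays level at 2.79 and 2.67 per 100 in healthy and STAM-vehicle means, and Cd9 of STAM-vehicle liver lies below.

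Other genes of the same pathways moved in part. The TREM2 list holds signalling genes and also other receptors such as Sirpa and Clec7a. Against 5.72% of all genes, 4 of its 11 tested genes rose in STAM-vehicle liver. These were Plcg2, the phospholipase that acts after SYK (3.89 ± 0.80 against 1.83 ± 0.33 CPM, edgeR adjusted p = 0.0154), the phosphatase Inpp5d, the receptor Sirpa (33.7 ± 9.50 against 15.5 ± 4.52 CPM, 0.013) and Clec7a. The kinase Syk had a log2 fold change of 0.70 (edgeR adjusted p = 0.0915), and Apoe, a TREM2 ligand made mostly by hepatocytes, one of -0.02 (0.981). Median log2 fold change over the 11 was 0.83.

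A wider list of 30 genes of lipid-associated macrophages had 8 higher and 0 lower in STAM-vehicle liver, against 5.72% and 1.38% of all genes. Mmp12, the macrophage elastase, went from 0.432 ± 0.109 to 6.29 ± 3.55 CPM, a log2 fold change of 3.84 (edgeR adjusted p = 0.000502). Lgals1 went from 3.92 ± 0.34 to 26.2 ± 11.2 CPM (2.74, adjusted p = 6.19e-05), and the fatty acid receptor Cd36 from 60.5 ± 8.95 to 207.6 ± 32.2 CPM (1.78, adjusted p = 0.00413). Capg, Axl, Clec7a, Cd68 and Plaur were the others. Spp1, osteopontin, measured 42.2 ± 10.8 in healthy and 54.6 ± 6.16 CPM in STAM-vehicle liver and did not pass (edgeR adjusted p = 0.285). The median over the 30 was 0.36. The lists overlap: Apoe, Cd68, Clec7a, Ctsb, Ctsk, Ctsl, Ctsz, Fabp4, Lgals1, Lipa and Spp1 each stand on more than 1 and are counted in each.

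The lysosomal genes did not share the members' pattern as a list. Of 30 tested, 2 rose (Laptm5 and Cd68), against 5.72% of all genes, and the median log2 fold change was -0.02. Lamp1 measured 576.5 ± 47.3 CPM in healthy and 550.9 ± 29.0 CPM in STAM-vehicle liver, and the cathepsin Ctsb 464.3 ± 11.6 and 495.3 ± 69.3 CPM. Of 10 MiT/TFE factors and lipid receptors 1 rose, Pparg, the fat-cell and macrophage lipid receptor, from 6.28 ± 0.46 to 12.3 ± 3.03 CPM (edgeR adjusted p = 0.0368). Mitf, Tfeb, Tfe3 and Tfec did not pass.

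The relatives of the members went different ways in STAM-vehicle against healthy, where 5.72% of all genes rose and 1.38% fell. Among 5 tested fatty acid binding proteins Fabp3 and Fabp7 rose and Fabp1, the liver form, fell from 2132 ± 559 to 753.3 ± 223 CPM (edgeR adjusted p = 0.0159). Fabp4 measured 11.2 ± 2.70 and 26.8 ± 9.31 CPM and did not pass (edgeR adjusted p = 0.0706). Among 15 lipases and lipoprotein lipase partners 0 rose and Lipc, hepatic lipase, fell from 131.0 ± 17.4 to 79.1 ± 11.9 CPM (edgeR adjusted p = 0.0347). Gpihbp1, which carries LPL to the capillary wall, was at 28.7 ± 7.73 and 29.2 ± 3.21 CPM. Of 13 tetraspanins Tspan4 and Tspan8 rose and Tspan31 and Tspan33 fell, of 5 galectins Lgals1 rose, and of 3 other beta2 integrin genes the alpha subunit Itgal rose. Itgb2, the beta chain that pairs with CD11c, had a log2 fold change of 0.94 and did not pass (edgeR adjusted p = 0.0529).

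**Figure D5:**
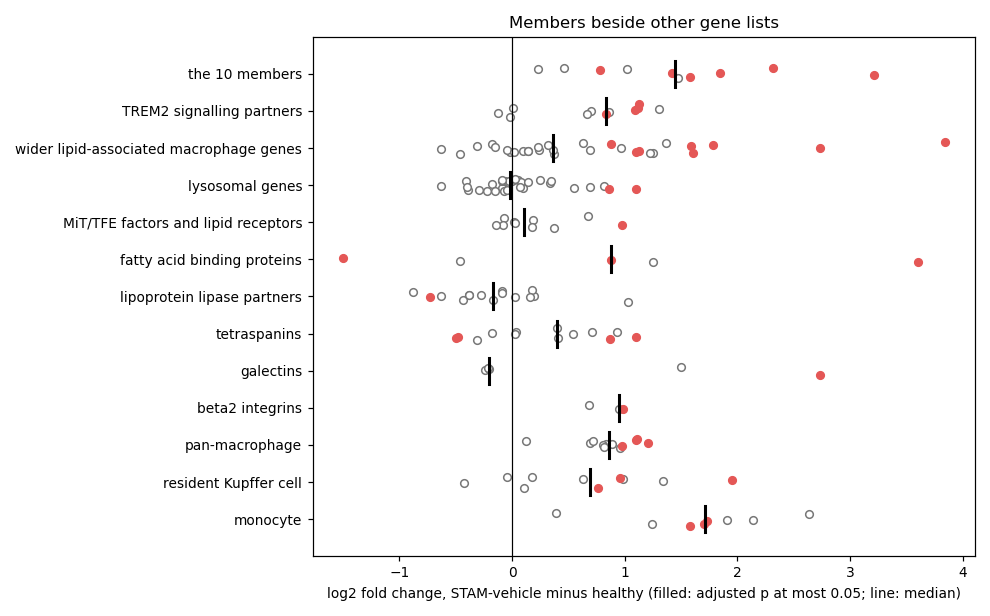
Log2 fold change of STAM-vehicle against healthy (x axis) for the 10 members and for each tested gene of 12 other lists; filled points have an adjusted p of at most 0.05 and black lines mark list medians. The members' median lies at 1.45, below that of the monocyte markers at 1.71. The median of the pan-macrophage markers lies at 0.86, that of the TREM2 list at 0.83 and that of the lysosomal genes at -0.02.

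For I-BET151 against STAM-vehicle no gene of these pathway lists passed the threshold in edgeR with all 12 mice. The lists were not read in DESeq2, where 1.5% of genes were called in either direction. Nor were they read without the third I-BET151 mouse, where 2.38% of all genes were called in either direction. Lgals1 came nearest, at 12.4 ± 1.80 against 26.2 ± 11.2 CPM (log2 fold change -1.08, edgeR adjusted p = 0.11). Its I-BET151 values all lay below its STAM-vehicle values, as in 2.63% of all genes. Overlap between the STAM groups was not counted over the lists. In I-BET151-treated against healthy liver 5 of the 11 tested genes on the TREM2 list were higher (Syk, Plcg2, Inpp5d, Sirpa and Clec7a). Of the 30 wider genes 8 were higher and 2 lower, the lower being the lysosomal lipase Lipa and the phosphatase Acp5. Of the 30 lysosomal genes 2 were higher and 3 lower. Of the 5 fatty acid binding proteins Fabp3, Fabp4 and Fabp7 were higher and Fabp1 and Fabp2 lower. Beside these counts against healthy liver, 9.88% of all genes tested were higher and 5.25% lower.

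The genes whose levels most resembled the members' mean over the 12 livers, each member scaled to its own mean and SD, were Marco (Pearson r = 0.977), Golm1 (0.975), Itgb2 (0.974), Csf1r (0.974) and S100a11 (0.974). After group means were removed the same genes gave 0.951 to 0.964. The points share libraries and scaling, and the third STAM-vehicle mouse, so these values describe the ordering of 12 livers only. Marco, a scavenger receptor of Kupffer cells, measured 9.43 ± 2.99 CPM in healthy, 36.5 ± 25.1 in STAM-vehicle and 43.7 ± 29.1 in STAM-I-BET151 liver.

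Reads of close copies could be misassigned in such counts. The processed pseudogene Fabp5l2 held 0 to 1 reads per liver and Cd63-ps 0 to 18, against at least 105 on Fabp5 and at least 120 on Cd63.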

How the data were processed

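Per the labels and the study's methods, liver RNA was prepared with a stranded mRNA kit, mapped by the authors to mm10 with STAR 2.5.1b and counted per gene with HTSeq on uniquely mapped reads. The deposited values are raw counts per Ensembl gene, 1 table per mouse. Their deposited names read featuresCounts, while the labels and methods name HTSeq, so the counting tool cannot be told for certain. The annotation release and strand setting are not given in the sources used here. IDs were matched to GENCODE M21 (47310 of 47729). Counts of all 12 mice were fitted across all genes in edgeR 4.0.16 (R 4.3.3; TMM, filterByExpr with a minimum count of 10, quasi-likelihood test, Benjamini-Hochberg). Adjusted p thresholds were 0.05 against healthy and 0.1 between the STAM groups. DESeq2 1.42.0 was an alternative; other normalization, filters, samples, a replicate block, the lane and leaving out each mouse were also tried. RPKM used the longest principal transcript, and intervals are 95%. Total counts of 34711229 to 53365596 set the counting error, and the p-values measure spread between mice. The study left out 1 I-BET151 sample for low gene counts, not named in the sources used here, and all 4 were kept. The third STAM-I-BET151 mouse had the lowest total count, 34711229, and the most genes with a count, 24304. Whether it was the sample left out cannot be told. The fit was tested on simulated data for STAM-vehicle against healthy. Of genes raised 2.0-fold 61.7% passed and of those raised 4.0-fold 87.0%. Of genes set to 0.5-fold 57.1% passed and of those set to 0.25-fold 79.2%, so differences of this size can be missed. Promoter windows were RefSeq's, found for 7 of 10 members. Named were the 10 members, up to 4 genes per list with the largest absolute log2 fold change past the threshold, markers without a count and the 5 genes most like the members; any further list gene was named after values were seen. The members and lists were chosen with earlier results of these data known. In the lysosomal list 1 gene is not reported here and was left out of its counts.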

Additional observations from a re-analysis of the deposited data

Results flagged for a closer look

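Of the 30 sets of 4 mice (10 members in 3 groups), 5 held a mouse whose gap to its neighbour, as a share of the group's range, was above Dixon's 95% critical value for 4 samples; chance alone flags about 1 in 20. In STAM-vehicle liver the third mouse stood apart in Gpnmb (12.4 CPM), Cd63 (30.4 CPM) and Lgals3 (25.3 CPM). In healthy liver the first mouse stood apart in Lgals3 (6.51 CPM) and the third in Ctsd (414.0 CPM). Without the third STAM-vehicle mouse Gpnmb and Cd63 remained above healthy at log2 fold changes of 2.62 and 1.31 and Lgals3 at 1.11.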

How the results depend on the processing

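The count of members higher in STAM-vehicle than in healthy liver was 6 (5.72% of all genes), and 7 in DESeq2 (7.36%), 5 with RLE scaling (5.43%), 7 when low genes were kept (3.51%), 6 when each sample needed 10 counts (5.04%) and 7 with only the 2 groups compared (12.9%). Leaving out 1 mouse gave 3 to 7, with 3 without the third healthy mouse (2.66%). For I-BET151 against healthy the count was 6 in each of these 5 settings (10.9%, 9.43%, 5.33%, 9.85% and 5.82% of all genes) and 3 to 7 without 1 mouse, with 3 without the second healthy mouse (5.54%). For I-BET151 against STAM-vehicle it was 0 in all of them, against 0.048% to 1.5% of all genes in either direction in the 5 settings (0 to 0 without 1 mouse). With lane as a covariate it was 0 in all 3 comparisons; the lanes take degrees of freedom and hold few mice of more than 1 group.

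Leaving out both STAM mice numbered 3 was added after the data had been seen: the vehicle mouse was chosen because it was highest in every member, the I-BET151 mouse because of its normalization factor. It gave 5, 2 and 7 members (8.21%, 1.86% and 11.3% of all genes higher). Since 1 of the mice was picked for its member levels, nothing is drawn from the 2 calls; leaving out either mouse alone gave 0. There Trem2 turned to 0.10, Gpnmb to 0.44, Lgals3 to 0.18 and Ctsd to 0.14 on the log2 scale.

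None of the changes of sign passed a test. For I-BET151 against STAM-vehicle, Trem2 turned to 0.0002 when each sample needed 10 counts and to 0.27 with the lane, Gpnmb to 0.061, Cd9 to -0.0052 and Lpl to -0.067 with the lane. Without 1 mouse the values ranged from -0.22 to 0.19 in Trem2, -0.39 to 0.38 in Gpnmb, -0.15 to 0.38 in Cd9, -0.017 to 0.57 in Lpl and -0.28 to 0.07 in Ctsd. Ctsd against healthy ranged from -0.063 to 0.28 in I-BET151-treated liver.

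Deviations of same-numbered mice correlated at -0.0927 on average and others at 0.0305, which gave no sign of pairing by number. An average over all groups cannot exclude it, and mice numbered 1, 3 and 4 shared a lane between the STAM groups. With the replicate block the counts were 4, 0 and 4, against 3.81% of all genes higher, 0.0594% called in either direction and 6.33% higher. Depth limits Trem2, Gpnmb and Itgax most, at 12, 15 and 21 reads in their lowest livers.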
